A study of Mus musculus with 15 samples.

Results

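The transcripts of 8 genes of the NF-κB pathway were examined in sorted stromal, endothelial and epithelial cells of the mouse. The genes were Nfkbia, Nfkbiz, Tnfaip3 and Zc3h12a, which encode inhibitors and feedback regulators, and Rela, Nfkb1, Nfkb2 and Relb, which encode Rel-family subunits. They were chosen as a list of symbols, and no measured value enters that rule, although earlier results of these data were known when the list was made. All 8 were found among the 10222 gene symbols of the deposited expression table, where they were represented by 11 transcripts, and the RPKM of a symbol's transcripts was summed.

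RNA was sequenced from 5 populations sorted by flow cytometry, with 3 libraries of each obtained in separate experiments. All mice carried the citrine reporter at the Il33 locus, as heterozygotes, on a C57BL/6 background. No treatment is given in the labels, and the age of the mice is not given there. Il33+ WAT-MSC and Il33- WAT-MSC are mesenchymal stromal cells (MSC) of white adipose tissue (WAT), mesenteric according to the labels. They lacked lineage markers, CD45, EpCAM, CD31 and CD24, carried PDGFRα, CD34, Sca1 and podoplanin, and were divided by citrine fluorescence. Lung Il33+ MSC are the citrine-positive stromal cells of the lung, for which the design text gives no gate of their own. WAT endothelial cells were gated as CD31+ and lung epithelial cells as EpCAM+, both without CD45. Tissue and cell type are therefore confounded for the epithelial cells, which were sampled from the lung alone, and for the endothelial cells, which were sampled from WAT alone. Citrine reports transcription of Il33 and not a lineage, so each gate may hold several kinds of cell. In these bulk libraries, fewer cells of a type and less RNA per cell cannot be told apart.

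NF-κB is a family of transcription factors that act as dimers. In resting cells the dimers are held in the cytoplasm by IκB proteins, and receptors for cytokines such as IL-1 and TNF, and Toll-like receptors, activate the IKK kinases, which mark IκB for destruction and release the dimer to the nucleus. Nfkbia, Tnfaip3, Nfkbiz and Zc3h12a are themselves induced by NF-κB, and their products restrain or redirect the response, so that the pathway carries its own brakes. In stromal cells the pathway is known for driving chemokines, adhesion molecules and Il6.

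The upstream sequences of the feedback genes are shown because κB sites near a start site are the feature by which NF-κB is known to induce its own inhibitors. RefSeq windows on GRCm38.p6 (mm10) were at hand for 5 of the 8 genes, namely Nfkbia, Tnfaip3, Zc3h12a, Rela and Nfkb2. The 250 bases before each start were searched on both strands for the degenerate κB consensus of 10 bases. A match was found in 3.9% of 32851 such windows over all genes and in 5 of the 8 windows of these 5 genes, which belong to 3 genes. Windows of a gene are not independent, and some of those of Nfkb2 overlap. Counted by gene, 4.46% of 27025 genes had a match. At least 2 matches were found in 0.493% of all windows. Each sequence below is written 5′ to 3′ on the strand of the gene and ends at the base before the start, with κB matches in capitals. The Nfkbia window is chr12:55492648-55492897 (minus strand), the Tnfaip3 windows are chr10:19015411-19015660 and chr10:19011964-19012213 (minus strand), and the Nfkb2 window is chr19:46304487-46304736 (plus strand).
Nfkbia: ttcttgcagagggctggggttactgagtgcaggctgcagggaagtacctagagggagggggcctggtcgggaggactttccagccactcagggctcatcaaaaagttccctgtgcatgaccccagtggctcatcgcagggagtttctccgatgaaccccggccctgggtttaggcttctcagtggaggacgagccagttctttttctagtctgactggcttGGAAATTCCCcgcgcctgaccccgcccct
Tnfaip3, upstream start: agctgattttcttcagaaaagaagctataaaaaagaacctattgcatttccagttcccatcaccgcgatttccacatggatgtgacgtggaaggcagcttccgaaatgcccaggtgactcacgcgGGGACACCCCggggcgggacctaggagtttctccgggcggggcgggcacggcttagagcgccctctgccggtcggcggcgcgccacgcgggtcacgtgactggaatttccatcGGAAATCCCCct
Tnfaip3, downstream start: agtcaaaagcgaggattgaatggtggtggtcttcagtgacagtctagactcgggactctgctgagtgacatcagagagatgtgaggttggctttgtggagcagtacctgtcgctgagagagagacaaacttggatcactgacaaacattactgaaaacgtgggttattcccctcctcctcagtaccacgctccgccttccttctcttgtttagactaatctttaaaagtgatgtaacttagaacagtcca
Nfkb2, most upstream start: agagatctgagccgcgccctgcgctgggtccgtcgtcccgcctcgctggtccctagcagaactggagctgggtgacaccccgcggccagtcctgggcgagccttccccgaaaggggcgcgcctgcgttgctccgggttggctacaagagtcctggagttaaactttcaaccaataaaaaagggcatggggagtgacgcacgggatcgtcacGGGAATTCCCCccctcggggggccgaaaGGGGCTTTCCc
The match of Nfkbia lies 29 to 20 bases before the start. The upstream start of Tnfaip3 has matches at 125 to 116 and at 12 to 3 bases before it, and the downstream start, 3447 bases away, has none. The Nfkb2 window holds 3 matches, of which the first pair overlaps in a single run at 39 to 29 bases before the start, and the last lies at 11 to 2. The listed Nfkb2 transcript begins at a later start, and the window of that start holds 1 match at 236 to 227 bases. The window of a further Nfkb2 start overlaps with that one and holds 1 match at 225 to 216 bases. No match was found in the windows of Rela and Zc3h12a. A match describes letters in these windows and does not show that a factor binds there.

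Library depth was similar, with 42711843 to 60773158 alignments. Il33 itself, which the citrine gate follows, was at 38.7 to 78.5 RPKM in Il33+ WAT-MSC, at 4.31 to 6.76 RPKM in Il33- WAT-MSC and at 43 to 55.7 RPKM in lung Il33+ MSC, so the stromal libraries matched their labels. Endothelial cells had 15.1 to 21.4 RPKM of Il33 and epithelial cells 3.92 to 6.4 RPKM. The summed level of 6 endothelial markers was 420 to 450 RPKM in endothelial cells and at most 64.8 RPKM elsewhere, and that of 6 epithelial markers was at least 161756 RPKM in epithelial cells and at most 535 RPKM elsewhere. The 6 stromal markers summed to 1535 to 3089 RPKM in endothelial cells, against 4613 to 6111 RPKM in Il33+ WAT-MSC. Endothelial replicate 1 stood apart from the other libraries of its population, with correlations of 0.773 and 0.774 to them and 10.9% of transcripts listed at 0. In the epithelial libraries 57.7 to 62.9% of the summed RPKM came from Scgb1a1.

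Among the inhibitors, Nfkbia encodes IκBα, which retains NF-κB dimers in the cytoplasm. It lies on chromosome 12 (GRCm38, 55489410 to 55492647, minus strand). Replicates 1, 2 and 3 had 108, 154 and 86.7 RPKM in Il33+ WAT-MSC compared with 68.1, 82.9 and 58.7 RPKM in Il33- WAT-MSC. They had 171, 146 and 187 RPKM in lung Il33+ MSC, with 175, 108 and 87 RPKM in endothelial cells and 43.3, 34.5 and 51 RPKM in epithelial cells. The epithelial libraries were the lowest of all 15, and the ranges of Il33+ and Il33- WAT-MSC did not overlap.

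Nfkbiz encodes IκBζ, a nuclear IκB protein that is induced by IL-1 and Toll-like receptor signals and acts on a subset of NF-κB target genes, in part as a coactivator. It lies on chromosome 16 (55811375 to 55838899, minus strand). Its libraries were at 99.6, 68.8 and 108 RPKM in Il33+ WAT-MSC and at 142, 158 and 192 RPKM in Il33- WAT-MSC. The values were 157, 158 and 132 RPKM in lung Il33+ MSC, with 71.7, 96.1 and 108 RPKM in endothelial cells and 13.1, 16 and 19.3 RPKM in epithelial cells. Here the citrine-negative stromal cells of WAT had the highest mean, all 3 of their libraries lay above all 3 of Il33+ WAT-MSC, and the epithelial cells were the lowest.

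Tnfaip3 encodes the ubiquitin-editing enzyme that ends signalling from TNF, IL-1 and Toll-like receptors to the IKK complex. It lies on chromosome 10 (19000910 to 19015657, minus strand). It was at 46.3, 38.2 and 39.6 RPKM in Il33+ WAT-MSC and at 16.9, 28.3 and 23.3 RPKM in Il33- WAT-MSC. It reached 67.2, 93.4 and 141 RPKM in lung Il33+ MSC, with 61.9, 31.2 and 39.5 RPKM in endothelial cells and 8, 7.77 and 14.8 RPKM in epithelial cells. All 3 lung Il33+ MSC libraries were above every other library of the series, and those of Il33+ and Il33- WAT-MSC did not overlap.

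Zc3h12a encodes a regnase, a ribonuclease that degrades mRNAs of inflammatory genes. It lies on chromosome 4 (125118423 to 125127840, minus strand). It was lower than the other inhibitors in every population, at 12.5, 12.3 and 8.33 RPKM in Il33+ WAT-MSC compared with 2.71, 10.1 and 5.79 RPKM in Il33- WAT-MSC. It was at 11, 11.1 and 9.82 RPKM in lung Il33+ MSC, at 38.7, 10.8 and 8.36 RPKM in endothelial cells and at 2.9, 3.46 and 4.16 RPKM in epithelial cells. The high endothelial mean of 19.3 ± 16.8 RPKM (SD, n = 3) rested on replicate 1.

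Of the subunits, Rela encodes the main transactivating subunit of the canonical pathway. It lies on chromosome 19 (5637483 to 5648130, plus strand). Its libraries had 16.3, 16.7 and 13.2 RPKM in Il33+ WAT-MSC compared with 12.4, 16.8 and 8.7 RPKM in Il33- WAT-MSC. They had 17.7, 14.4 and 16.9 RPKM in lung Il33+ MSC, with 7.61, 15.9 and 15.7 RPKM in endothelial cells and 2.62, 4.06 and 3.6 RPKM in epithelial cells. The 4 stromal and endothelial populations overlapped with one another, and all epithelial libraries lay below them.

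Nfkb1 encodes the precursor of the usual partner of RelA. It lies on chromosome 3 (135584655 to 135691547, minus strand). It was at 10.4, 11.9 and 8.74 RPKM in Il33+ WAT-MSC, at 4.52, 13.1 and 7.91 RPKM in Il33- WAT-MSC and at 7.35, 11.5 and 13 RPKM in lung Il33+ MSC. It was at 10.7, 12.7 and 9.12 RPKM in endothelial cells and at 2.16, 6.85 and 5.41 RPKM in epithelial cells. The epithelial range overlapped with that of Il33- WAT-MSC and lay below the ranges of the other 3 populations.

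Nfkb2 and Relb encode the subunits of the non-canonical pathway and were the lowest of the 8 genes. Nfkb2 lies on chromosome 19 (46304320 to 46312385, plus strand) and Relb on chromosome 7 (19606217 to 19629438, minus strand). Nfkb2 was at 2.65, 0.92 and 2.56 RPKM in Il33+ WAT-MSC, with 1.72, 4.03 and 1.96 RPKM in their Il33- counterparts. It was at 3.74, 3.38 and 3.97 RPKM in lung Il33+ MSC, with 0.38, 2.4 and 3.45 RPKM in endothelial cells and 0.07, 1.81 and 1.6 RPKM in epithelial cells. The 3 lung Il33+ MSC libraries lay close together for Nfkb2 and above all Il33+ WAT-MSC and epithelial libraries. Relb was at 1.82, 0.54 and 0.96 RPKM in Il33+ WAT-MSC, with 0.4, 0.87 and 1.64 RPKM in their Il33- counterparts. It was at 0.84, 1.16 and 2.24 RPKM in lung Il33+ MSC, with 3.9, 1.66 and 1.48 RPKM in endothelial cells, and was listed at 0, 0.79 and 0.73 RPKM in epithelial cells. For Relb, endothelial replicate 1 was the highest library of the series.

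**Figure D1:**
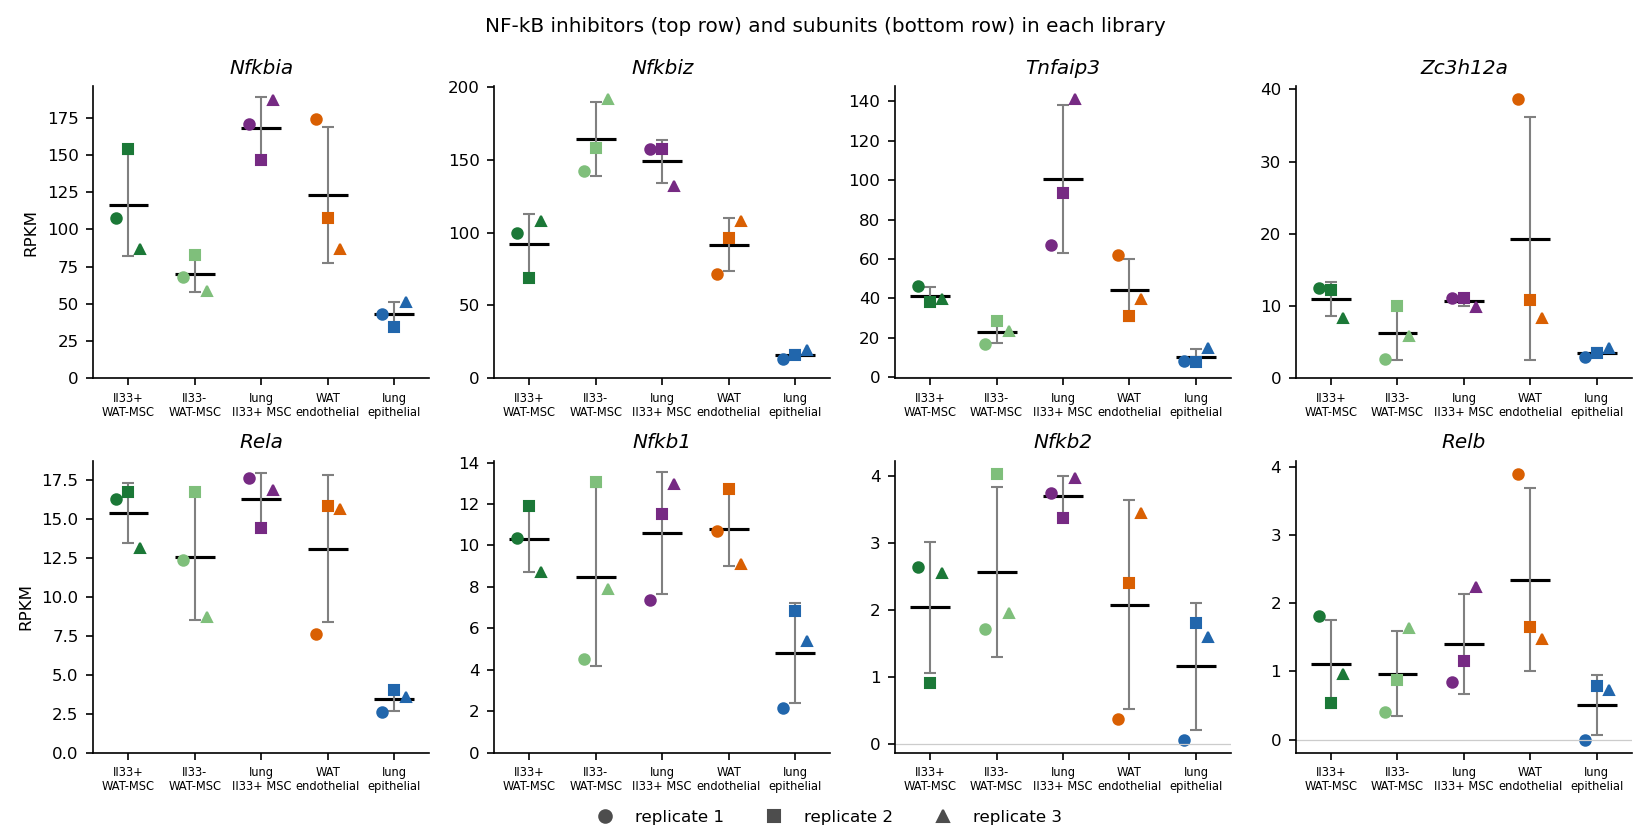
RPKM of the 8 genes in each library (y axis, linear, a scale for each panel) by population (x axis). Symbols are libraries, horizontal bars are means and error bars are SD (n = 3). The inhibitors Nfkbia, Nfkbiz and Tnfaip3 each reach over 100 RPKM in lung Il33+ MSC, whereas no subunit passes 17.7 RPKM, and epithelial cells are low throughout.

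In every library the summed RPKM of the 4 inhibitors exceeded that of the 4 subunits, by 4.56-fold to 15.4-fold. RPKM is scaled to transcript length, so these levels can be compared between genes, within the error of the annotated lengths. The ratio was 8.54, 9.09 and 9.53 in Il33+ WAT-MSC and 13.7, 13.4 and 13 in lung Il33+ MSC, so the citrine-positive stromal cells of both tissues did not overlap. It spread more widely in Il33- WAT-MSC (12.1, 8.06 and 13.8), endothelial cells (15.4, 7.52 and 8.17) and epithelial cells (13.9, 4.56 and 7.87). In rank of mean RPKM among the 10222 genes, Nfkbia stood between 137 and 393 in the 5 populations, and Relb between 6796 and 9373.

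The populations were then ordered by mean RPKM for each gene, and each neighbouring pair was compared with limma and Benjamini-Hochberg adjustment over all genes tested, with a threshold of 0.05. Of 32 neighbouring pairs 30 could be tested and 4 passed, and in each of these the lower neighbour was the epithelial population. Of all genes tested, 42.1% passed between Il33- WAT-MSC and epithelial cells and 27.6% between endothelial and epithelial cells. Nfkbia (log2 fold change 0.69, standard error (SE) 0.25, adjusted p = 0.0465), Tnfaip3 (1.12, SE 0.32, adjusted p = 0.0188) and Rela (1.59, SE 0.31, adjusted p = 0.00265) were higher in Il33- WAT-MSC than in epithelial cells. Nfkbiz was higher in endothelial than in epithelial cells (2.44, SE 0.28, adjusted p = 4.73e-04). No neighbouring pair of stromal or endothelial populations that was tested passed, although the libraries of some of these pairs did not overlap. Between those populations 1.57 to 9.69% of all genes passed, and 17.5 to 27.4% had libraries that did not overlap. Neighbours in an order of means are close by construction, so this result does not extend to populations further apart in the order, some of which differed as given below. Without Il33- WAT-MSC replicate 2 or 3, or epithelial replicate 1 or 2, the number of pairs past the threshold fell to 2.

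The comparison of Il33+ with Il33- WAT-MSC asks whether citrine-positive stromal cells differ in these genes from citrine-negative ones of the same tissue. Il33 was lower in the latter but not absent, at 4.31 to 6.76 RPKM. The mean of Nfkbia was higher in Il33+ WAT-MSC by 0.70 on the log2 scale of RPKM + 1 (95% interval 0.13 to 1.27, adjusted p = 0.306 from limma) and that of Tnfaip3 by 0.85 (0.31 to 1.40, adjusted p = 0.159). The mean of Nfkbiz was lower, with a log2 difference of -0.84 (-1.38 to -0.31, adjusted p = 0.156). These 3 genes were the ones whose libraries did not overlap between the populations, among 17.5% of all genes tested. None of the 7 genes tested passed the threshold, which 1.57% of all 8448 genes did. At an unadjusted p under 0.05 there were 4 of the 7 and 980 of all genes, the fourth being Zc3h12a, with a log2 difference of 0.86 (0.01 to 1.71) and overlapping libraries. Rela (0.31), Nfkb1 (0.35) and Nfkb2 (-0.23) had intervals that span 0, and Relb was too low to be tested. Nfkbiz alone passed under 2 other normalizations, with -0.86 (adjusted p = 0.048) under median-ratio scaling and -1.02 (adjusted p = 0.0319) under quantile normalization. Over 15 alternatives its adjusted p ranged from 0.0319 to 0.4.

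Because Nfkbiz differed in the opposite direction to Nfkbia and Tnfaip3, their ratios were taken within each library, where the scaling of the library cancels. These ratios were chosen after the values were seen and are given without a test. Nfkbia over Nfkbiz was 1.08, 2.24 and 0.805 in Il33+ WAT-MSC and 0.479, 0.523 and 0.306 in Il33- WAT-MSC. Tnfaip3 over Nfkbiz was 0.465, 0.555 and 0.368 in Il33+ WAT-MSC and 0.119, 0.179 and 0.121 in Il33- WAT-MSC. For both ratios the 3 Il33- WAT-MSC libraries were the lowest of all 15. The other populations had Nfkbia over Nfkbiz of 1.09, 0.929 and 1.42 in lung Il33+ MSC, 2.43, 1.12 and 0.806 in endothelial cells and 3.31, 2.16 and 2.65 in epithelial cells. The ratio of Tnfaip3 to Nfkbia, in contrast, overlapped between Il33+ WAT-MSC (0.429, 0.248 and 0.457) and Il33- WAT-MSC (0.248, 0.342 and 0.397). The summed level of 12 immediate early and heat shock genes, which are induced by handling of cells, was 4021 to 7392 RPKM in Il33+ WAT-MSC as against 6115 to 9518 RPKM in Il33- WAT-MSC, with none of the 12 past the threshold and none at 0, and its part in these ratios was not tested.

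**Figure D2:**
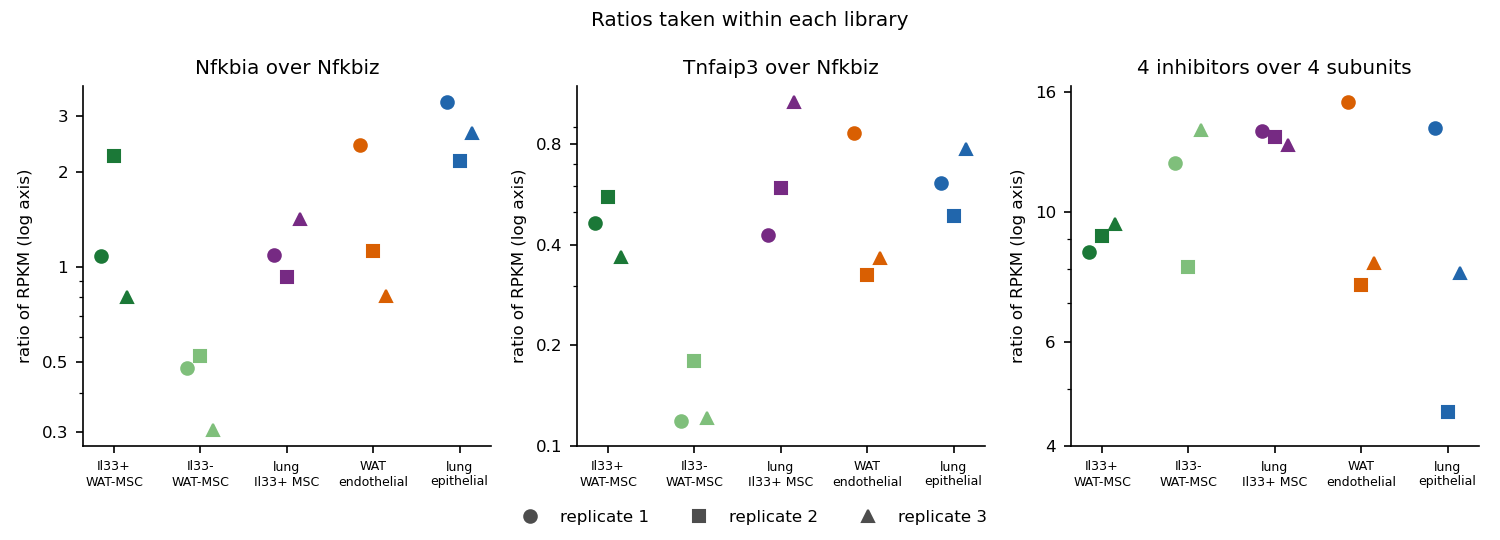
Ratios of RPKM within each library (y axes, logarithmic) by population (x axes), for Nfkbia over Nfkbiz, Tnfaip3 over Nfkbiz and the 4 inhibitors over the 4 subunits. Points are libraries. Il33- WAT-MSC have the lowest values in the first and second panels, at 0.306 to 0.523 and 0.119 to 0.179, and in the last Il33+ WAT-MSC (8.54 to 9.53) lie below lung Il33+ MSC (13 to 13.7) and the ranges of the other populations overlap with both.

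Between the citrine-positive stromal cells of WAT and of lung, Tnfaip3 was the member that passed the threshold. It was lower in Il33+ WAT-MSC (41.4 ± 4.29 RPKM) than in lung Il33+ MSC (100.6 ± 37.5 RPKM, SD, n = 3), with a log2 fold change of -1.20 (SE 0.26, adjusted p = 0.0204 from limma). That is 1 of 8 genes, where 3.5% of all genes tested were lower in Il33+ WAT-MSC and 6% differed in either direction. The call held in 9 of 15 alternatives, and was lost with lane as a covariate (adjusted p = 0.0528), in a fit of all 15 libraries (0.0529) and without replicate 2 or 3 of either population (0.0506 to 0.0988). Nfkbiz (-0.71, adjusted p = 0.0896) and Nfkb2 (-0.68, adjusted p = 0.314) also had libraries that did not overlap, which 23.1% of all genes had. Nfkbia was at -0.56 (95% interval -1.08 to -0.05, adjusted p = 0.242). Rela (-0.08, interval -0.54 to 0.38), Nfkb1 (-0.01, -0.58 to 0.56) and Zc3h12a (0.03, -0.48 to 0.54) differed little in the mean, and Relb was at -0.20 (-0.98 to 0.58). The median over the 8 genes was -0.38, against 0.03 over all genes tested. Of 9 leukocyte markers 7 were listed, none at 0 throughout a population, and their sum was 10.5 to 17.7 RPKM in Il33+ WAT-MSC as against 151 to 182 RPKM in lung Il33+ MSC, mostly Lyz2. A sum that rests mainly on 1 gene is not a measure of leukocyte content. Of the 6 leukocyte markers tested, 2 were lower in Il33+ WAT-MSC, and 1 of these, Laptm5, was under 1 RPKM in all Il33+ WAT-MSC libraries. The epithelial markers summed to 72.8 to 144 RPKM in Il33+ WAT-MSC and to 168 to 535 RPKM in lung Il33+ MSC. The sum of the immediate early and heat shock genes was 8708 to 9952 RPKM in lung Il33+ MSC, above that of Il33+ WAT-MSC, with 2 of the 12 lower in Il33+ WAT-MSC, Nr4a1 (-1.27, adjusted p = 0.00333) and Fos (-0.96, adjusted p = 0.0362). The call of Fos was lost with lane as a covariate (0.0702), in the fit of all 15 libraries (0.333) and with no filter (0.0839). With each library left out, it held in 1 of 6 fits. The part of the leukocyte markers, of the epithelial markers or of the immediate early and heat shock genes in the Tnfaip3 difference was not tested.

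Il33- WAT-MSC, which share a tissue with Il33+ WAT-MSC and differ from lung Il33+ MSC in both tissue and citrine, had 2 genes that passed against lung Il33+ MSC. Nfkbia was lower by the test with a log2 fold change of -1.26 (SE 0.21, adjusted p = 0.00306) and Tnfaip3 with -2.05 (SE 0.29, adjusted p = 0.00132). Of all genes tested in that pair, 5.53% were lower and 9.69% differed in either direction. Nfkbiz did not follow, at 0.13 (95% interval -0.31 to 0.58). Lung Il33+ MSC thus had the high Nfkbiz level of Il33- WAT-MSC together with the highest Nfkbia and Tnfaip3 means of the series.

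Il33+ WAT-MSC and WAT endothelial cells come from the same tissue, and none of the 8 genes passed the threshold between them, which 3.9% of 8665 genes did. None of the 8 had an unadjusted p under 0.05, which 1335 genes had, and none had libraries that did not overlap, which 23.2% of genes had. The log2 differences were -0.06 for Nfkbia (95% interval -0.84 to 0.72), -0.04 for Tnfaip3 (-0.74 to 0.65) and -0.06 for Nfkb1 (-0.75 to 0.63), and that of Nfkbiz rounded to 0 (-0.66 to 0.65). The intervals of Zc3h12a (-1.65 to 0.73), Nfkb2 (-1.15 to 1.32), Relb (-1.67 to 0.39) and Rela (-0.51 to 1.08) were wider. Endothelial replicate 1 had the highest Nfkbia, Tnfaip3, Zc3h12a and Relb and the lowest Rela, Nfkb2 and Nfkbiz of its population. Its ratio of Nfkbia to Rela was 22.9, against 6.78 and 5.55 in the other endothelial libraries and 6.58 to 9.22 in Il33+ WAT-MSC. Without it the differences were 0.22 for Nfkbia, 0.23 for Tnfaip3, 0.18 for Zc3h12a, -0.41 for Nfkb2 and -0.04 for Rela, none past the threshold. Median-ratio scaling moved the median of all genes in this comparison by -0.15, and Nfkbia (-0.27), Tnfaip3 (-0.25) and Nfkb1 (-0.26) were negative there as well. Stromal markers in the endothelial libraries amounted to the sums given above. In this pair 1 of 6 stromal markers was higher in Il33+ WAT-MSC (0.565% of all genes were) and 4 of 6 endothelial markers were lower (3.34%), so most stromal markers did not pass either. The part of stromal RNA in the small differences was not tested. Against endothelial cells, no member passed in Il33- WAT-MSC (5.69% of all genes) or in lung Il33+ MSC (7.1% of all genes). In Il33- WAT-MSC the libraries of 3 members did not overlap (23.8% of all genes), with Nfkbia and Tnfaip3 below and Nfkbiz above endothelial cells. In lung Il33+ MSC those of 2 members, Nfkbiz and Tnfaip3, lay above them (26.1% of all genes did not overlap).

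Lung epithelial cells had the lowest mean of every one of the 8 genes. Against Il33+ WAT-MSC, 6 of the 7 genes tested were higher in the stromal cells and none lower, while 23% of all 9267 genes were higher and 41% differed in either direction. Nfkbiz differed most, at 92.1 ± 20.5 against 16.1 ± 3.08 RPKM (SD, n = 3), a log2 fold change of 2.43 (SE 0.25, adjusted p = 5.29e-05). Tnfaip3 followed with 1.97 (adjusted p = 3.88e-04), Rela with 1.90 (3.24e-04), Zc3h12a with 1.41 (0.00281), Nfkbia with 1.39 (0.00224) and Nfkb1 with 1.06 (0.0426), all from limma. Nfkb2 was at 0.56 (95% interval -0.44 to 1.56, adjusted p = 0.353). The libraries of those 6 genes did not overlap, as in 52.2% of all genes.

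Against lung Il33+ MSC, from the same organ, all 7 genes tested were higher in the stromal cells, where 24.4% of 9352 genes were higher, 43% differed in either direction and 53.4% did not overlap. Tnfaip3 was at 100.6 against 10.2 RPKM, a log2 fold change of 3.17 (SE 0.33, adjusted p = 5.06e-05). Nfkbiz was at 149.1 against 16.1 RPKM, a change of 3.14 (SE 0.21, adjusted p = 3.77e-06). Rela (1.98), Nfkbia (1.96), Zc3h12a (1.38), Nfkb2 (1.24) and Nfkb1 (1.07) passed with smaller changes. The median over the genes tested was 1.96, against 0.13 over all genes. The comparisons with epithelial cells share the 3 epithelial libraries. The calls of Nfkbia, Nfkbiz, Tnfaip3, Zc3h12a and Rela held in all 15 alternatives against both stromal populations. Those of Nfkb1 held in 8 of 15 for WAT and 9 of 15 for lung, and that of Nfkb2 in 9 of 14.

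A shift of the whole library bears on these values. Median-ratio scaling moved the median of all genes against epithelial cells by -0.25 for Il33+ WAT-MSC and by -0.19 for lung Il33+ MSC, and turned the split of all genes in the former from 2128 higher and 1672 lower to 1701 higher and 2105 lower. Under it, Nfkbiz was still at 2.12 and 2.90, Tnfaip3 at 1.66 and 2.93, and Rela at 1.61 and 1.76, and Nfkb1 against Il33+ WAT-MSC fell to 0.79 (adjusted p = 0.0754). Leukocyte markers summed to 716 to 1354 RPKM in the epithelial libraries, of which Lyz2 made up most. A sum that rests mainly on 1 gene is not a measure of leukocyte content. Lower than in epithelial cells were 5 of 6 markers tested in Il33+ WAT-MSC (18% of all genes) and 1 of 7 in lung Il33+ MSC (18.5%). Of the 5, Laptm5 and Tyrobp were under 1 RPKM in every Il33+ WAT-MSC library. The immediate early and heat shock genes summed to 1072 to 1997 RPKM there, below every other library, with 9 of 12 called against Il33+ WAT-MSC and 12 of 12 against lung Il33+ MSC. Whether they account for part of the difference in the inhibitors was not tested. Epithelial cells were also below Il33- WAT-MSC in 4 genes (23.5% of all genes were higher in the stromal cells and 42.1% differed) and below endothelial cells in 5 (14.9% higher and 27.6% in either direction).

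**Figure D3:**
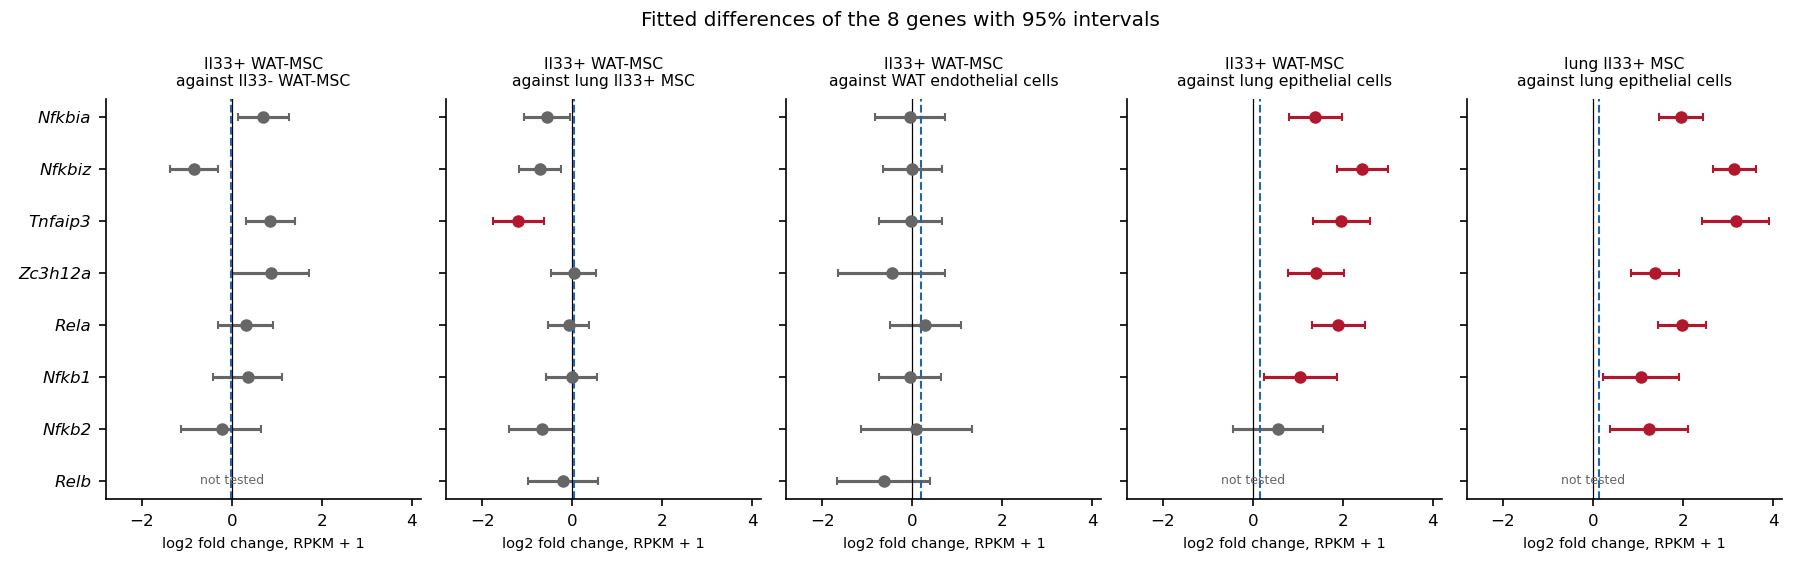
Fitted log2 fold changes of RPKM + 1 (x axes) for the 8 genes (y axis) in 5 comparisons, with 95% intervals. Red points passed an adjusted p of 0.05, grey points did not, and the dashed line marks the median of all genes tested. The red points are Tnfaip3 against lung Il33+ MSC and the genes higher than in epithelial cells.

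Tnfaip3 and Nfkbiz were each listed with transcripts of different start. The Tnfaip3 transcript of the downstream start, whose window above holds no κB match, took 69.3 to 76.4% of the gene's RPKM in 14 libraries and 99.4% in epithelial replicate 1. Its mean was 29.5 ± 4.09 RPKM in Il33+ WAT-MSC, with 16.9 ± 4.5 RPKM in Il33- WAT-MSC, and it reached 75.7 ± 28.4 RPKM in lung Il33+ MSC (SD, n = 3). The transcript of the upstream start was at 11.9 ± 0.371, 5.96 ± 1.27 and 24.8 ± 9.15 RPKM in the same populations, so both differed in the same direction. Both transcripts have a coding region of 775 codons and share most exons, so the division of reads between them is uncertain. For Nfkbiz, a transcript of 629 codons and one of 728 codons, whose starts lie 16761 bases apart, had similar levels. They were at 51.6 ± 19.4 and 38.7 ± 1.35 RPKM in Il33+ WAT-MSC. In Il33- WAT-MSC their levels were 84.3 ± 12.3 and 76.7 ± 12.6 RPKM (SD, n = 3). A further transcript, also of 728 codons, was at 0.23 to 3.87 RPKM, at most 2.56% of the gene. The share of the transcript of 629 codons ran from 42.1% in endothelial replicate 3 to 73.4% in epithelial replicate 3. The division of reads between the Nfkbiz transcripts is uncertain as well.

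**Figure D4:**
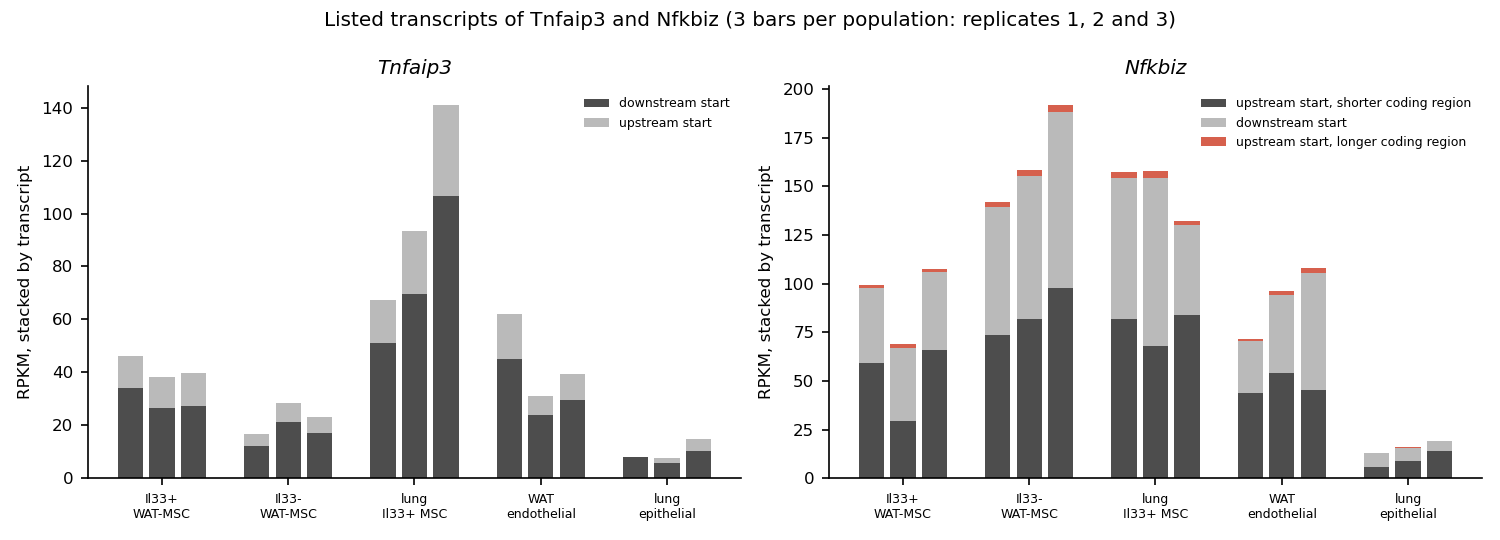
RPKM of the listed transcripts of Tnfaip3 and Nfkbiz (y axes, linear from 0), stacked for each library, with 3 bars for each population (x axes). The downstream start takes most of every Tnfaip3 bar, and Nfkbiz is divided mainly between 2 transcripts of different start.

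The genes whose pattern over the 15 libraries was most like that of each member were found by Pearson correlation of log2(RPKM + 1) among 9981 genes. The libraries of a population share their cell type, so these values describe the populations and no test is given. Nfkbiz was closest to Pdgfrb (r = 0.993), a receptor of mural and stromal cells, and to the immediate early gene Fosb (0.981) and Prelp (0.978). Nfkbia was closest to Ntn4 (0.93), Tnfaip3 (0.93) and Skil (0.928), and Tnfaip3 to Ctgf (0.955), Sparcl1 (0.95) and Sema3d (0.947). Rela was closest to Igfbp6 (0.963), Ablim1 (0.957) and Cdon (0.951), and Zc3h12a to Map3k3 (0.912), Pcmtd1 (0.907) and Ccser2 (0.907). The low subunits had as closest genes Slc41a1 (0.954) for Nfkb1, Tom1l2 (0.939) for Nfkb2 and Taf1 (0.94) for Relb. Among the members, Nfkbia and Tnfaip3 were the closest pair (0.93), and Nfkb2 and Zc3h12a the least alike (0.083).

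The rest of the pathway was read from lists of receptors, adaptors and kinases, IKK kinases, other Rel and IκB proteins, other negative regulators and target genes. Between Il33+ and Il33- WAT-MSC, none of the 10 receptors, 17 adaptors and kinases, 4 IKK kinases, 3 other Rel and IκB genes and 15 negative regulators tested passed the threshold. Of 23 target genes tested 1 was higher and 1 lower, where 1.57% of all genes differed in either direction. Mmp3, which encodes a matrix metalloproteinase, was higher in Il33+ WAT-MSC (21.1 against 1.76 RPKM, log2 fold change 3.09, adjusted p = 0.00382), and Plau, which encodes urokinase, was lower (14 against 63.3 RPKM, -2.12, adjusted p = 0.00435).

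In the comparison of stroma from WAT and lung, 1 of 10 receptors and 4 of 26 target genes were lower in WAT and 1 target gene was higher, while no adaptor, IKK kinase, other IκB gene or negative regulator passed. Of all genes tested, 3.5% were lower in WAT and 6% differed in either direction. The receptor was Il1r1, the signalling receptor of IL-1 (30.8 against 57.9 RPKM, log2 fold change -0.89, adjusted p = 0.0172). The target genes that were lower were Vcam1, an adhesion molecule for leukocytes (-2.47), Mmp3 (-2.34), Bcl2a1b (-2.27) and Ier3 (-1.13), and Plau was higher (2.31). Bcl2a1b was under 1 RPKM in all Il33+ WAT-MSC libraries and so could be tested only because of its level in lung. The call of Il1r1 was lost in the fit of all 15 libraries (adjusted p = 0.126) and without any one of the lung replicates, and that of Bcl2a1b in the fit of all 15 libraries (0.134). The call of Ier3 was lost without any one of the lung replicates or without Il33+ WAT-MSC replicate 1 (0.0541 to 0.0723).

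Against WAT endothelial cells, 1 of 4 other Rel and IκB genes was lower, namely Nfkbid, which encodes a nuclear IκB protein (0.0733 against 4.37 RPKM, log2 fold change -2.26, adjusted p = 0.0195). Of 27 target genes 3 were lower, Vcam1 (-2.96), Cx3cl1 (-2.62) and Ccl5 (-2.18), and Il6 was higher in Il33+ WAT-MSC (129 against 49.9 RPKM, 1.33, adjusted p = 0.0347). In this comparison 3.9% of all genes differed. Nfkbid, Ccl5 and Cx3cl1 were under 1 RPKM in every Il33+ WAT-MSC library, so they could be tested only because of their endothelial level. Their calls and that of Il6 were lost without any one of the Il33+ WAT-MSC libraries. The call of Cx3cl1 was also lost with a pseudocount of 0.1 (adjusted p = 0.0581) and with no filter (0.0739). That of Il6 was also lost under median-ratio scaling (0.0801), in the fit of all 15 libraries (0.099) and without endothelial replicate 1 or 2 (0.0603 and 0.193). Ccl5 and Saa3 were listed at 0 in all Il33+ WAT-MSC libraries.

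Against lung epithelial cells the lists of signalling genes were higher in lung Il33+ MSC in 5 of 11 receptors, 7 of 17 adaptors and kinases, 3 of 4 other Rel and IκB genes, 5 of 15 negative regulators and 19 of 30 target genes, where 24.4% of all genes were higher and 43% differed in either direction. Lower were 1 receptor, 1 adaptor, 1 IKK kinase and 3 target genes. The other Rel and IκB genes were Bcl3 (1.34), Nfkbie (1.17) and Rel (1.08), and each call was lost without some of the libraries. Among receptors, Il17ra (2.98 on the log2 scale) and Il1r1 (2.14) were higher and Il18r1 was lower (-5.53), at under 1 RPKM in every lung Il33+ MSC library. Birc3 (2.20), Map3k8 (2.15), Myd88 (2.04) and Ripk1 (1.89) were higher among adaptors and kinases, and Chuk, the IKKα kinase, was lower (-1.35), with 2 against 6.59 RPKM. Irak3 (3.28) and Zfp36 (3.07), a factor that destabilizes cytokine mRNAs, led the negative regulators. The target genes with the largest changes were Mmp3 (5.67), Cxcl1 (5.24), Il6 (4.75), Ccl7 (4.67) and Ptx3 (4.59). Nfkbie and Ptx3 were under 1 RPKM in every epithelial library and could be tested only because of their stromal level. Il33+ WAT-MSC had 5 of 11 receptors, 8 of 17 adaptors and kinases, 4 of 15 negative regulators and 19 of 28 target genes higher than epithelial cells, where 23% of all genes were higher and 41% differed, in a comparison that shares the epithelial libraries. Lower were Chuk again (-1.51), Il18r1 (-4.96), Irak2 (-1.93) and 5 target genes, of which 4 were under 1 RPKM in every Il33+ WAT-MSC library. The call of Irak2 was lost with the most abundant transcript (adjusted p = 0.236).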

How the data were processed

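RNA from sorted cells was amplified by the authors with the Ovation RNA-seq System V2 and sequenced on an Illumina HiSeq4000. Reads were aligned to mm10 with TopHat2 in Partek Flow, as named in the submitters' processing notes and the methods of the study. The deposited values are RPKM of 12698 RefSeq transcripts, which the authors had scaled to transcript length and mapped reads. Without counts the counting error of single values cannot be given, and errors are SD between libraries. The samples were grouped by the labels, and 0 value columns lacked a sample.

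RPKM was summed per gene symbol and compared on log2(RPKM + 1) with limma 3.58.1 in R 4.3.3 (lmFit, eBayes with a trend). Each comparison used its 6 libraries and those genes that reached 1 RPKM in 3 or more of them, with two-sided p-values adjusted by Benjamini-Hochberg over all genes tested. The added 1 understates changes of low genes such as Nfkb2 and Relb. The study's methods give no model for these data. Alternatives were a replicate block, lane as a covariate (8 libraries in lane 1 and 7 in lane 2), all 15 libraries in one fit, median-ratio and quantile scaling, a pseudocount of 0.1, no filter, an RPKM of at least 5, the most abundant transcript of each gene, and each library left out.

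The members and all gene lists were chosen with earlier results of these data known. Genes other than the members are named only where they passed in a list, up to 5 for each list and comparison by size of change, where a listed gene was at 0 throughout a population, where they were among the 3 most correlated with a member, or as markers. Of the genes in these lists, 25 had no entry in the deposited expression table and could not be analysed. Among them were Il1rl1, Traf2, Tradd, Ikbkg, Cyld, Tnf and Ptprc. How transcripts were selected for that table is not described, so counts and shares refer to the genes it holds. Gene positions are from GENCODE on GRCm38 and start-site windows from RefSeq on GRCm38.p6. Python 3.11.15, numpy 2.4.6, pandas 2.3.3 and matplotlib 3.10.9 were used.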

Additional observations from a re-analysis of the deposited data

How the results depend on the processing

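The number of members past the threshold for Il33+ against Il33- WAT-MSC rose from 0 to 1 (Nfkbiz) under median-ratio scaling and under quantile normalization. Over all genes it rose from 133 to 194 and 190. For Il33+ WAT-MSC against lung Il33+ MSC the number of members fell from 1 to 0 with lane as a covariate and in a fit of all 15 libraries. Over all genes it fell from 513 to 396 and 336. With each library left out, the numbers of members ranged from 0 to 0, 0 to 1 and 0 to 0 against Il33- WAT-MSC, lung Il33+ MSC and endothelial cells, from 5 to 6 and 5 to 7 for Il33+ WAT-MSC and lung Il33+ MSC against epithelial cells, and from 2 to 5 for neighbouring pairs. Over all genes, the numbers in the 5 comparisons ranged from 49 to 121, 191 to 447, 56 to 261, 2364 to 3066 and 2835 to 3300, in the same order. Signs turned only for small differences that did not pass: Zc3h12a against lung Il33+ MSC (-0.07 with lane, -0.05 with quantile normalization), Nfkb1 there (0.05 with lane), and, against endothelial cells, Nfkbiz (0.04 with the most abundant transcript) and Nfkb2 (-0.02 with quantile normalization). Leaving out libraries gave -0.40 to 0.07 for Nfkb2 against Il33- WAT-MSC. Against lung Il33+ MSC it gave -0.06 to 0.20 for Zc3h12a, -0.23 to 0.14 for Nfkb1, -0.37 to 0.00 for Relb and -0.16 to 0.02 for Rela. Against endothelial cells it gave -0.28 to 0.22 for Nfkbia, -0.17 to 0.19 for Nfkbiz, -0.26 to 0.23 for Tnfaip3, -0.86 to 0.18 for Zc3h12a, -0.17 to 0.05 for Nfkb1, -0.41 to 0.43 for Nfkb2 and -0.04 to 0.45 for Rela. The causes were not tested. With a block for replicate number, the number of members past the threshold stayed at 0, 1, 0, 6 and 7 in the 5 comparisons, and the number over all genes moved from 133 to 232 against Il33- WAT-MSC and from 513 to 454 against lung Il33+ MSC. Same-numbered libraries had mean correlations of deviations of -0.03 to 0.11 and are not known to share mice. Without the filter 45 genes in all passed against Il33- WAT-MSC, and the fit of all 15 libraries gave 336 against lung Il33+ MSC and 805 in place of 338 against endothelial cells. With 3 libraries of each population, no member passed between Il33+ and Il33- WAT-MSC, apart from Nfkbiz under the normalizations above. The libraries of Nfkbia, Nfkbiz and Tnfaip3 did not overlap there, and the intervals of Rela, Nfkb1 and Nfkb2 spanned 0. The low levels of Nfkb2 and Relb, with population means of at most 3.7 RPKM, carry an unknown counting error.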
